A study of Mus musculus with 8 samples.

Results

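The 34 genes described here are p53 target genes, genes whose transcription p53 is known to switch on, with p53 itself and its closest partners. They were chosen by name for their known place in the pathway, with earlier results of these data already known. The genes were looked up in a table of 37583 mouse genes. All 34 were found, 33 by their symbol and Pidd1, which the table lists under its older symbol Lrdd, by its Ensembl identifier. The list holds 9 genes of growth arrest, 12 of cell death, 5 of DNA repair and nucleotide supply, 4 of stress and metabolism, and 4 of the p53 family and its feedback loop.

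p53 is a transcription factor that is normally kept scarce by Mdm2, a ubiquitin ligase that marks it for destruction. DNA damage and stalled replication release p53 from Mdm2. It then binds DNA elements near its targets, which halt the cell cycle, repair DNA or kill the cell, and it also raises Mdm2, which closes a feedback loop. In liver, hepatocytes rarely divide, and the arrest gene Cdkn1a is the best known p53 target to respond when they are injured or pushed to divide.

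RNA from whole livers of C57BL6/CBA mice aged 8 months was sequenced in 8 libraries of 3 groups. The PR-SET7_LOBE group held 4 libraries with the genotype PR-SET7_LX_ALB_CRE, in which the floxed gene of Pr-Set7, the enzyme that monomethylates histone H4 at lysine 20, is removed by a Cre recombinase driven by the albumin promoter. That promoter is active in hepatocytes, so blood vessel, immune and stellate cells of these livers keep the gene, and what LOBE stands for is not given. For DEN_WT, 2 libraries came from wild-type animals given diethylnitrosamine (DEN), a liver carcinogen whose products damage DNA, into the abdominal cavity at day 15 after birth. The dose is written as 25 ml per kg, and its concentration is not given. The WT group held 2 libraries of wild-type livers with no agent in their labels, and no group injected with vehicle alone was analysed here.

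Samples of a group carry only a number, and whether they come from separate animals is not said. A p-value here is therefore set against a spread that may be technical. Both groups were compared with the same 2 WT libraries, and the comparisons therefore share any peculiarity of those libraries. In bulk liver RNA, fewer cells of a type and less RNA per cell cannot be told apart. Total counts ran from 7305595 to 16108081 per library. PR-SET7_LOBE replicate 1 stood apart from its group: over all genes it correlated better with WT (mean r = 0.923) than with PR-SET7_LOBE replicates 2 to 4 (mean r = 0.890), and its deviations followed transcript GC content (r = 0.607 across genes, against -0.289 to 0.297 in the other 7 libraries). Setd8, the gene of Pr-Set7, was at 62.6, 57.4, 47.9 and 46.5 CPM (counts scaled to 1e+06 per library) in PR-SET7_LOBE as labelled, against 51.9 and 56.0 CPM in WT, with a log2 fold change of -0.01 (edgeR, adjusted p = 0.994). These are counts of the whole gene and the deleted exons are not given, so Setd8 does not check the genotype labels. Hepatocyte markers, 10 genes with Alb and Ttr among them, summed to 46400 to 166000 CPM in PR-SET7_LOBE, 126000 to 159000 in DEN_WT and 112000 to 147000 in WT, so liver's defining cells were present in every library.

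The DNA to which p53 binds is a pair of 10-base units. Each unit has a core of the form CNNG, in which each N is A or T, with 3 purines before it and 3 pyrimidines after it, and a spacer may lie between the units. RefSeq promoter windows (build GRCm38.p6, 250 bases before to 50 bases after an annotated start) were available for 26 of the 34 genes, in 37 windows. They were searched on both strands for such a pair with both cores intact, a spacer of 0 or 1 base and at most 2 mismatches elsewhere. The pair was found for 3 of the 26 genes, Cdkn1a, Bax and Gtse1, in 3 of 37 windows (8.11%), and in 105 of all 32817 windows (0.320%). The Cdkn1a window is printed whole because Cdkn1a rose in both groups, and the Gtse1 and Bax elements are printed to set beside it, with the bases of the units in capitals.
Cdkn1a, chr17:29090729-29091028, plus strand: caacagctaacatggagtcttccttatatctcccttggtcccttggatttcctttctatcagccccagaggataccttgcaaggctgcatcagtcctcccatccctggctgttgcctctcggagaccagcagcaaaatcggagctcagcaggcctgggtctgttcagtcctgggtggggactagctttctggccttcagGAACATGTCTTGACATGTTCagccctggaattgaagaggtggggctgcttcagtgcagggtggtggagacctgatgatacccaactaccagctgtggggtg
Gtse1 element, in the window chr15:85859696-85859995, plus strand: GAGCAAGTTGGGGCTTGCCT
Bax element, in the window chr7:45466849-45467148, minus strand: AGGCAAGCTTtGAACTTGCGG

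The Cdkn1a element lies 51 to 32 bases before an upstream start of the gene and departs from the pattern at 1 base. The Gtse1 element spans -1 to 19 around its start, also with 1 mismatch, and the Bax element lies 201 to 181 bases before its start with 2 mismatches and a spacer of 1 base. A single unit with no mismatch was found in 12 of the 37 windows (32.4%), against 8.36% of all windows. Among these were GGGCAAGCCT at -185 in Ccng1, GAACTTGCCT at -186 in Mdm2 and GGACTTGCCC at -75 in Trp53 itself. The windows of Phlda3, Psrc1, Btg2 and Eda2r held no such pair. Allowing 1 mismatch left 2 genes with a pair and 0.0884% of all windows, and allowing 3 gave 6 genes and 1.06% of all windows. A match describes letters in a window, not binding, and a window without one says nothing about p53 elsewhere in the gene.

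A gene is said to have risen or fallen where edgeR's quasi-likelihood test, fitted over all 8 libraries and adjusted over all 17362 genes tested by the Benjamini-Hochberg method, gave an adjusted p under 0.05. Levels are CPM after TMM scaling, which compare libraries for 1 gene and not 1 gene with another. Differences are log2 fold changes with their standard error (SE). All 34 genes passed the filter on low counts. For 31 of them every group had a library over the filter's cutoff of 0.956 CPM, taken before TMM scaling. Psrc1, Eda2r and Trp73 had no WT library over it, and Trp73 passed through PR-SET7_LOBE alone.

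In the livers labelled PR-SET7_LOBE, Cdkn1a and Phlda3 rose against WT, and none of the 34 genes fell. These 2 genes compare with 0.150% of all genes tested that rose and 0.0979% that fell (0.248% in either direction). In DEN_WT livers 7 genes rose against WT and none fell, where 5.18% of all genes rose and 4.54% fell (9.73% in either direction). The 7 were Cdkn1a, Psrc1, Btg2, Ccng1, Phlda3, Eda2r and Trp53inp1. Of these, Psrc1 and Eda2r had no WT library over the filter's cutoff, so a higher level outside WT was a condition of their being tested. Between the groups, Tnfrsf10b was higher in PR-SET7_LOBE than in DEN_WT, and Btg2 and Perp were lower, against backgrounds of 4.82% higher and 6.26% lower (11.1% in either direction). In all, 9 genes passed in at least 1 comparison, 2 of them, Cdkn1a and Phlda3, in both comparisons with WT, and 25 in none. The list was chosen with earlier results of these data known, so these counts are not independent of the data. Falls were called under some alternatives: Perp fell in PR-SET7_LOBE against WT under 5 of 18, and in DEN_WT against WT Dcxr fell under 9 and Tnfrsf10b under 6. Single libraries moved these counts. Against WT, the count in PR-SET7_LOBE was 0 without WT replicate 1 and without WT replicate 2, 1 without PR-SET7_LOBE replicate 2 (Phlda3) and 11 without PR-SET7_LOBE replicate 1, where 13.9% of all genes passed. The count in DEN_WT was 2 without WT replicate 1, 3 without WT replicate 2 or DEN_WT replicate 2, 4 without DEN_WT replicate 1 and 14 without PR-SET7_LOBE replicate 1, where 26.5% of all genes passed. Between PR-SET7_LOBE and DEN_WT it was 1 without DEN_WT replicate 1, 0 without DEN_WT replicate 2 and 5 without PR-SET7_LOBE replicate 2.

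The median log2 fold change of the 34 genes was 0.81 in PR-SET7_LOBE against WT, where all genes tested had a median of 0.11, and 0.69 in DEN_WT against WT, where all genes had 0.06. It was -0.06 between PR-SET7_LOBE and DEN_WT, where all genes had 0.18. All 4 PR-SET7_LOBE libraries lay above both WT libraries for 12 genes and below them for 2, where 11.6% and 10.5% of all genes did so. Both DEN_WT libraries lay above both WT libraries for 20 genes and below them for 6, with 37.8% and 33.3% of all genes as the background. PR-SET7_LOBE lay wholly above DEN_WT for 4 genes and wholly below it for 5, against 19.3% and 21.2% of all genes.

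**Figure D1:**
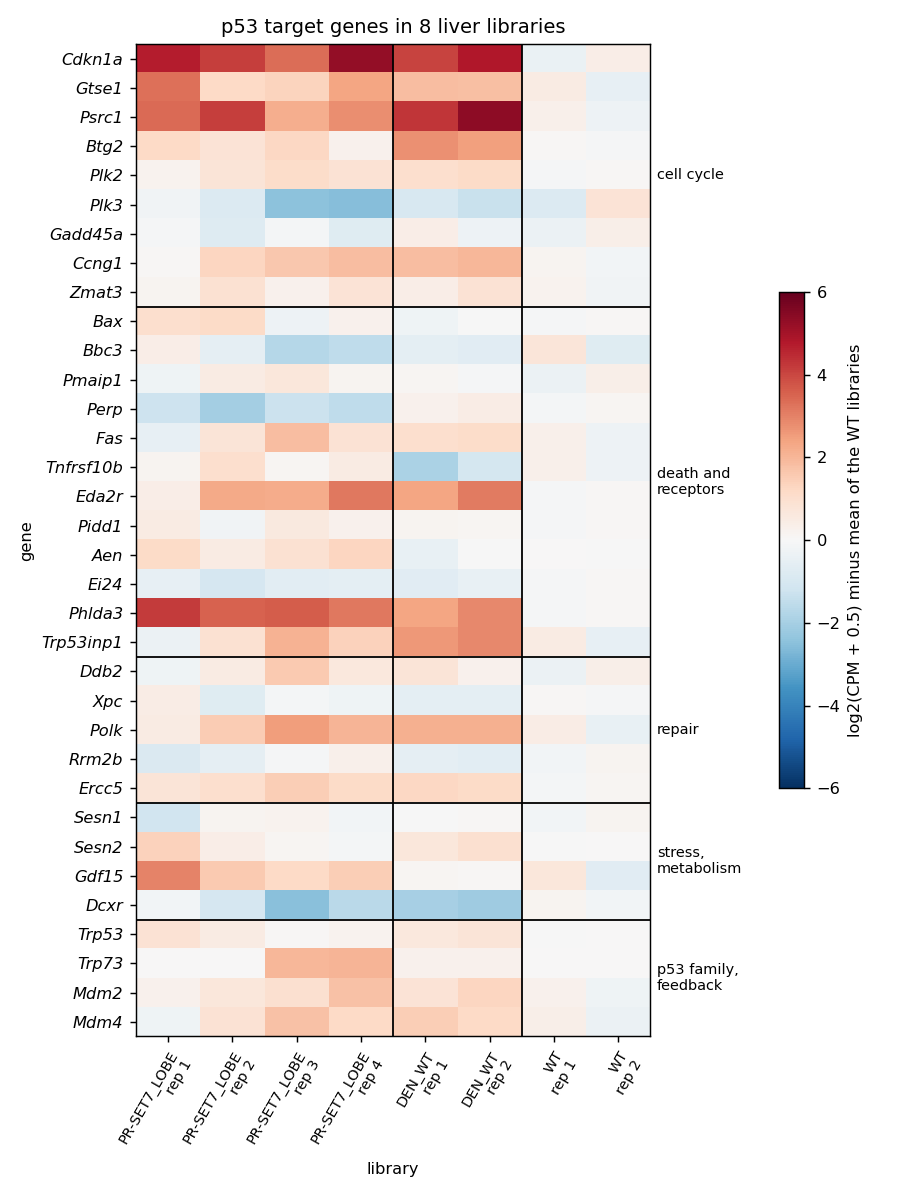
Level of each of the 34 genes in each of the 8 libraries, as the log2 difference from the mean of the WT libraries (CPM with 0.5 added, colours limited at 6 either way), with genes in rows by role and libraries in columns by group. Cdkn1a and Phlda3 are above WT in all 6 libraries of the other groups, Psrc1 and Eda2r are above it in the same 6, and Perp is below WT in all 4 PR-SET7_LOBE libraries.

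Among the 9 genes of growth arrest, Cdkn1a rose in both groups. It encodes p21, which inhibits cyclin-dependent kinases and blocks entry into S phase (mm9 chromosome 17, 29227924 to 29237667). Cdkn1a was at 56.1, 38.3, 21.9 and 83.1 CPM in PR-SET7_LOBE livers, at 35.5 and 59.8 CPM in DEN_WT livers and at 1.15 and 2.40 CPM in WT livers. Every library of both groups was thus far above both WT libraries, while the 2 groups overlapped each other. The log2 fold change against WT was 4.80 in PR-SET7_LOBE (SE 0.69, adjusted p = 0.0248, edgeR), a fold of 27.9, and 4.74 in DEN_WT (SE 0.72, adjusted p = 0.00327), a fold of 26.7. Between PR-SET7_LOBE and DEN_WT it was 0.06 (SE 0.52, adjusted p = 0.949), a difference smaller than its error. The rise in PR-SET7_LOBE was no longer past the threshold without WT replicate 1, WT replicate 2 or PR-SET7_LOBE replicate 2, with an adjusted p of at most 0.237. Over all alternatives the log2 fold change was between 4.36 and 5.49 in PR-SET7_LOBE and between 4.32 and 5.46 in DEN_WT. Transcripts of a later annotation hold 262 bases identical to Cdkn1a under another gene name, for which no counts were used here, so those of Cdkn1a are uncertain to that extent.

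Psrc1 encodes a microtubule-binding protein of the mitotic spindle that was identified as a p53 target in mouse cells (chromosome 3, 108186757 to 108191149). It was at 7.04, 12.4, 2.78 and 4.46 CPM in PR-SET7_LOBE, 13.8 and 29.0 CPM in DEN_WT and 0.383 and 0.0922 CPM in WT, where the libraries held only 4 and 1 counts. Psrc1 was thus nearly silent in WT and present in every library of both other groups, and DEN_WT lay above all PR-SET7_LOBE libraries. It rose in DEN_WT (log2 fold change 6.44, SE 0.97, adjusted p = 0.00324, edgeR), a fold whose size rests on those 5 counts. In PR-SET7_LOBE the log2 fold change of 4.76 did not pass (SE 0.90, adjusted p = 0.0605), and neither did the difference between PR-SET7_LOBE and DEN_WT (-1.68, SE 0.59, adjusted p = 0.0959). The rise in DEN_WT passed under all 18 alternatives run, and the difference of PR-SET7_LOBE from WT passed under 7 of them.

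Btg2, an antiproliferative protein that recruits mRNA deadenylases (chromosome 1, 135971747 to 135975697), separated the 2 groups. It was at 43.7, 34.4, 45.2 and 23.0 CPM in PR-SET7_LOBE, 132 and 108 CPM in DEN_WT, and 19.7 and 18.3 CPM in WT. The groups, at means of 36.6 ± 10.2 CPM in PR-SET7_LOBE, 120 ± 17.0 CPM in DEN_WT and 19.0 ± 0.967 CPM in WT (SD, n = 4, 2 and 2), did not overlap. Btg2 rose in DEN_WT against WT (log2 fold change 2.66, SE 0.45, adjusted p = 0.00539, edgeR) and was lower in PR-SET7_LOBE than in DEN_WT (-1.72, SE 0.35, adjusted p = 0.00966). Against WT the log2 fold change of 0.94 in PR-SET7_LOBE did not pass (SE 0.38, adjusted p = 0.256). The rise in DEN_WT was no longer past the threshold without WT replicate 1 or WT replicate 2 (adjusted p at most 0.0573), and neither was the difference between PR-SET7_LOBE and DEN_WT without DEN_WT replicate 1 or 2 (at most 0.116).

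Ccng1 encodes cyclin G1, which brings a phosphatase to Mdm2 (chromosome 11, 40562054 to 40568813). It was at 11.4, 26.6, 34.1 and 40.2 CPM in PR-SET7_LOBE, 40.5 and 45.0 CPM in DEN_WT, and 12.3 and 9.40 CPM in WT. PR-SET7_LOBE replicate 1 lay within the WT range and its other libraries above it. Ccng1 rose in DEN_WT (log2 fold change 1.97, SE 0.55, adjusted p = 0.0465, edgeR), and in PR-SET7_LOBE the log2 fold change of 1.37 did not pass (SE 0.49, adjusted p = 0.220). The call in DEN_WT is close to the threshold and was lost under 6 of 18 alternatives, which were upper-quartile scaling and leaving out either WT library, either DEN_WT library or PR-SET7_LOBE replicate 2, with an adjusted p of at most 0.213. With an offset for GC content the log2 fold change in DEN_WT was 1.15.

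The other 5 arrest genes did not pass in any comparison. Gtse1, a microtubule-binding protein that binds p53 and moves it out of the nucleus in human cells, was at 15.5, 3.16, 3.53 and 7.65 CPM in PR-SET7_LOBE, 5.22 and 5.12 CPM in DEN_WT, and 1.72 and 0.645 CPM in WT. All 6 libraries of these groups lay above both WT libraries, but the log2 fold changes of 2.65 in PR-SET7_LOBE and 2.12 in DEN_WT had adjusted p = 0.166 and 0.129 (edgeR). Plk2, a polo-like kinase, was at 9.11 to 17.3 CPM in PR-SET7_LOBE, 15.9 and 17.9 CPM in DEN_WT, and 7.37 and 8.11 CPM in WT. Its relative Plk3, which overlaps Tctex1d4 on the opposite strand, was at 11.9 to 63.7 CPM in PR-SET7_LOBE, 36.8 and 28.4 CPM in DEN_WT, and 41.0 and 129 CPM in WT, with its WT libraries far apart. Zmat3, an RNA-binding zinc finger protein, was at 13.9 to 24 CPM in PR-SET7_LOBE, 16.6 and 23.1 CPM in DEN_WT, and 14.4 and 10.8 CPM in WT. Gadd45a, a stress sensor that overlaps a gene on the opposite strand, had overlapping ranges in all 3 groups, at 4.88 to 8.26 CPM in PR-SET7_LOBE, 11.6 and 6.80 CPM in DEN_WT, and 6.60 and 11.1 CPM in WT.

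**Figure D2:**
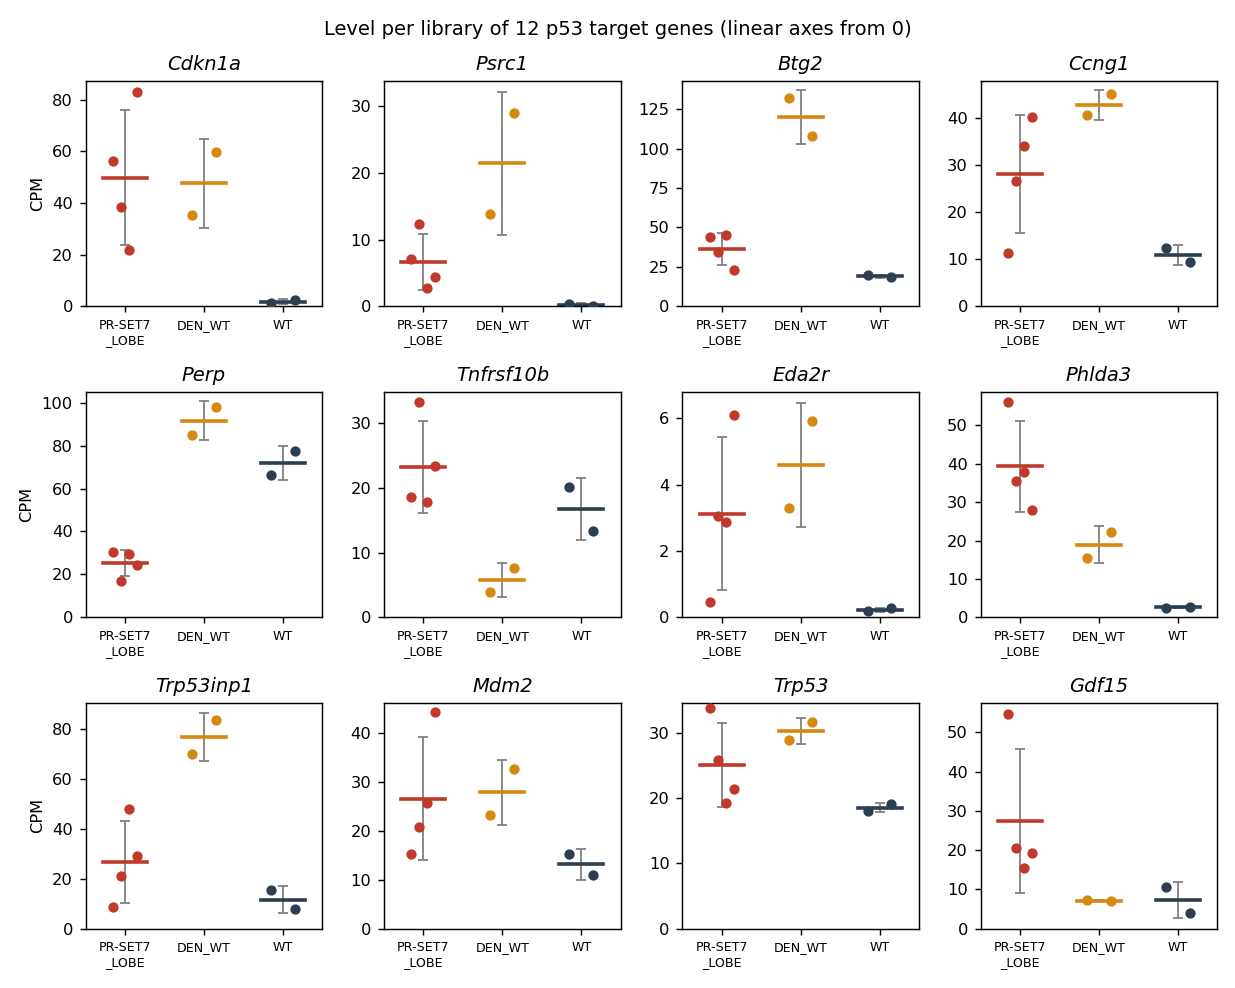
CPM (linear axes from 0) of 12 genes in each library: the 9 genes that passed in any comparison, with Mdm2, Trp53 and Gdf15. Each point is a library, each coloured line the mean of its group and each grey bar its SD, with PR-SET7_LOBE left, DEN_WT in the middle and WT right. Cdkn1a and Phlda3 are at under 3 CPM in both WT libraries and above 15 CPM in all 6 others, while Perp is low in PR-SET7_LOBE alone and Tnfrsf10b in DEN_WT alone.

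Among the 12 death genes, Phlda3 rose in both groups. It encodes a small pleckstrin homology domain protein that competes with the survival kinase Akt for membrane lipids (chromosome 1, 137662696 to 137665713). Phlda3 was at 56.0, 35.6, 37.8 and 27.9 CPM in PR-SET7_LOBE, 15.5 and 22.3 CPM in DEN_WT, and 2.49 and 2.77 CPM in WT. The groups, at means of 39.3 ± 11.9 CPM in PR-SET7_LOBE, 18.9 ± 4.84 CPM in DEN_WT and 2.63 ± 0.196 CPM in WT (SD, n = 4, 2 and 2), did not overlap. The log2 fold change against WT was 3.90 in PR-SET7_LOBE (SE 0.47, adjusted p = 0.0109, edgeR) and 2.84 in DEN_WT (SE 0.47, adjusted p = 0.00507). The difference between PR-SET7_LOBE and DEN_WT, 1.05, did not pass (SE 0.39, adjusted p = 0.111). By p it was the 6th of all 17362 genes in PR-SET7_LOBE against WT, and Cdkn1a the 17th. The call in PR-SET7_LOBE was lost without WT replicate 1 or WT replicate 2 (adjusted p at most 0.208), and that in DEN_WT without WT replicate 1 or DEN_WT replicate 2 (at most 0.0591). In DEN_WT the log2 fold change was 3.90 with an offset for GC content, and between 2.57 and 3.90 over all alternatives.

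Trp53inp1 and Eda2r rose in DEN_WT. Trp53inp1, a nuclear stress protein that partners p53 and takes part in autophagy (chromosome 4, 11083578 to 11101526), was at 8.64, 21.2, 47.8 and 29.0 CPM in PR-SET7_LOBE, 70.0 and 83.4 CPM in DEN_WT, and 15.5 and 7.74 CPM in WT. DEN_WT lay above every other library, and PR-SET7_LOBE replicate 1 lay between the WT libraries. Against WT, Trp53inp1 differed by 2.72 on the log2 scale in DEN_WT (SE 0.69, adjusted p = 0.0337, edgeR) and 1.20 in PR-SET7_LOBE (SE 0.60, adjusted p = 0.323). Eda2r, a receptor of the tumour necrosis factor family that binds an ectodysplasin (chromosome X, 94529179 to 94572555), was at 0.470, 3.06, 2.88 and 6.10 CPM in PR-SET7_LOBE, 3.28 and 5.92 CPM in DEN_WT, and 0.191 and 0.277 CPM in WT. Its WT values are 2 and 3 counts, and PR-SET7_LOBE replicate 1 held 5. Eda2r differed from WT by 4.23 on the log2 scale in DEN_WT (SE 1.09, adjusted p = 0.0359) and 3.67 in PR-SET7_LOBE (SE 1.03, adjusted p = 0.155). Leaving out WT replicate 1, WT replicate 2, DEN_WT replicate 1 or DEN_WT replicate 2 ended the call of Trp53inp1 (adjusted p at most 0.194), and these or leaving out PR-SET7_LOBE replicate 2 ended that of Eda2r (at most 0.183). With an offset for GC content the log2 fold changes in DEN_WT were 1.81 for Trp53inp1 and 3.44 for Eda2r.

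Perp and Tnfrsf10b differed between PR-SET7_LOBE and DEN_WT. Perp, a membrane protein of desmosomes that p53 induces in dying cells (chromosome 10, 18564877 to 18576879), was at 30.4, 16.9, 29.4 and 24.3 CPM in PR-SET7_LOBE, 85.1 and 98.0 CPM in DEN_WT, and 66.3 and 77.3 CPM in WT. All 4 PR-SET7_LOBE libraries lay below those of both other groups, with means of 25.3 ± 6.17 CPM in PR-SET7_LOBE, 91.6 ± 9.15 CPM in DEN_WT and 71.8 ± 7.74 CPM in WT (SD, n = 4, 2 and 2). For Perp the log2 fold change was -1.86 against DEN_WT (SE 0.34, adjusted p = 0.00531, edgeR), and -1.51 against WT, which did not pass (SE 0.34, adjusted p = 0.0964). Tnfrsf10b, a death receptor for the ligand TRAIL (chromosome 14, 70167279 to 70184210), was at 18.6, 33.2, 17.8 and 23.3 CPM in PR-SET7_LOBE, 3.98 and 7.68 CPM in DEN_WT, and 20.1 and 13.3 CPM in WT. Its low values were thus those of DEN_WT, at a mean of 5.83 ± 2.62 CPM (SD, n = 2). The log2 fold change of PR-SET7_LOBE against DEN_WT was 1.99 (SE 0.46, adjusted p = 0.0188), and that of DEN_WT against WT, -1.51, did not pass (SE 0.49, adjusted p = 0.0757). Tnfrsf10b is 97.5% identical over 405 bases to Gm15574, which held 6 counts in the 8 libraries against 1479 of Tnfrsf10b. Without DEN_WT replicate 2 neither Perp nor Tnfrsf10b passed between PR-SET7_LOBE and DEN_WT, and without DEN_WT replicate 1 Tnfrsf10b did not (adjusted p at most 0.0852 for Perp and 0.258 for Tnfrsf10b).

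The other 7 death genes did not pass in any comparison, among them the pore-forming and BH3-only members of the BCL2 family. Bax, which opens the mitochondrial outer membrane, was at 24.2, 27.3, 9.47 and 14.2 CPM in PR-SET7_LOBE, 10 and 11.7 CPM in DEN_WT, and 11.4 and 12.5 CPM in WT. Its activator Bbc3 (PUMA) was at 5.11 to 23.8 CPM in PR-SET7_LOBE, 11.7 and 11 CPM in DEN_WT, and 30.5 and 10.6 CPM in WT. Pmaip1 (NOXA) was at 1.22 to 2.78 CPM in PR-SET7_LOBE, 1.77 and 1.5 CPM in DEN_WT, and 1.15 and 2.12 CPM in WT. The log2 fold changes of these BCL2 family genes against WT were between -0.80 and 0.65 in PR-SET7_LOBE and between -0.85 and 0.00 in DEN_WT. Those of Bbc3 turned their sign in both groups without WT replicate 1, and in DEN_WT with an offset for GC content. Fas, a death receptor, was at 6.01, 14.9, 32.8 and 16.4 CPM in PR-SET7_LOBE, 17.6 and 18.9 CPM in DEN_WT, and 10.6 and 7.01 CPM in WT, with replicate 1 of PR-SET7_LOBE below both WT libraries.

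Aen, an exonuclease that digests DNA in dying cells, was among the 4 genes with the smallest adjusted p between PR-SET7_LOBE and DEN_WT. It was at 58.9, 37.5, 50.2 and 64.2 CPM in PR-SET7_LOBE, 18.8 and 25.7 CPM in DEN_WT, and 26.9 and 25.4 CPM in WT. All PR-SET7_LOBE libraries lay above those of both other groups. Its log2 fold change was 1.24 against DEN_WT (SE 0.37, adjusted p = 0.0521, edgeR), just short of the threshold, and 1.01 against WT (adjusted p = 0.219). Ei24, a protein of the endoplasmic reticulum that overlaps a gene on the opposite strand, was at 102 to 148 CPM in PR-SET7_LOBE, 130 and 150 CPM in DEN_WT, and 198 and 213 CPM in WT, below WT in all 6 libraries of the other groups, with adjusted p = 0.322 and 0.368. Pidd1, which assembles a platform that activates caspase-2, was at 3.06 to 5.76 CPM in PR-SET7_LOBE, 4.16 and 3.97 CPM in DEN_WT, and 3.45 and 3.87 CPM in WT.

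None of the 5 genes of DNA repair and nucleotide supply passed in any comparison. Ddb2 and Xpc recognise DNA lesions in nucleotide excision repair and Ercc5 cuts beside them. Ercc5 was at 10.7, 12.6, 17.6 and 14.1 CPM in PR-SET7_LOBE, 14.9 and 14.0 CPM in DEN_WT, and 5.46 and 6.64 CPM in WT. All 6 libraries of the other groups lay above WT, with log2 fold changes of 1.19 in PR-SET7_LOBE (adjusted p = 0.189, edgeR) and 1.25 in DEN_WT (adjusted p = 0.0867). Polk, a polymerase that copies past damaged bases and overlaps a gene on the opposite strand, was at 2.72, 6.22, 12.9 and 8.93 CPM in PR-SET7_LOBE, 9.74 and 9.80 CPM in DEN_WT, and 2.68 and 1.20 CPM in WT. Polk also lay above WT in all 6, with log2 fold changes of 1.98 (adjusted p = 0.197) and 2.33 (adjusted p = 0.0666). Ddb2, which overlaps Acp2 and shares 442 bases with it, was at 2.07 to 8.63 CPM in PR-SET7_LOBE, 4.78 and 3.27 CPM in DEN_WT, and 1.91 and 3.50 CPM in WT. Xpc was at 23.6 to 54.9 CPM in PR-SET7_LOBE, 25.9 and 26.1 CPM in DEN_WT, and 41.2 and 38.1 CPM in WT. Rrm2b, the p53-induced subunit of ribonucleotide reductase, overlaps another gene on its own strand, is 96.1% identical over 1051 bases to a further gene for which no counts were used here, and was at 2.25 to 5.83 CPM in PR-SET7_LOBE, 3.01 and 2.74 CPM in DEN_WT, and 4.02 and 5.16 CPM in WT.

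None of the 4 genes of stress and metabolism passed either. Gdf15, a cytokine that stressed cells secrete, was at 54.8, 20.5, 15.4 and 19.3 CPM in PR-SET7_LOBE, 7.17 and 6.98 CPM in DEN_WT, and 10.6 and 3.96 CPM in WT. Every PR-SET7_LOBE library lay above those of both other groups, and replicate 1 stood far above the other 3. For Gdf15 the log2 fold change was 1.91 against WT (SE 0.62, adjusted p = 0.188, edgeR) and 1.96 against DEN_WT (SE 0.62, adjusted p = 0.0679), and in DEN_WT against WT it was -0.04. Sesn1 and Sesn2 are sestrins, which restrain the growth kinase mTORC1. Sesn1 was at 4.98 to 13.4 CPM in PR-SET7_LOBE, 11.2 and 12.3 CPM in DEN_WT, and 10.4 and 12.9 CPM in WT. Sesn2, which overlaps another gene on its own strand, was at 27.5, 13.6, 11.1 and 9.47 CPM in PR-SET7_LOBE, 16.6 and 20.5 CPM in DEN_WT, and 10.2 and 10.4 CPM in WT. Dcxr, a reductase of the uronate cycle, was at 113, 62.1, 21.5 and 41.1 CPM in PR-SET7_LOBE, 31.0 and 28.3 CPM in DEN_WT, and 141 and 111 CPM in WT. Its DEN_WT libraries lay below both WT libraries, with a log2 difference of -2.09 that did not pass (SE 0.66, adjusted p = 0.0673).

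The mRNA of p53 itself and of its 2 inhibitors did not pass in any comparison. Trp53, the gene of p53, was at 33.7, 25.8, 19.2 and 21.3 CPM in PR-SET7_LOBE, 28.9 and 31.7 CPM in DEN_WT, and 18 and 19 CPM in WT. All 6 libraries of the other groups lay above WT, with log2 fold changes of 0.44 in PR-SET7_LOBE (SE 0.35, adjusted p = 0.521, edgeR) and 0.71 in DEN_WT (SE 0.40, adjusted p = 0.259). A pseudogene 97.7% identical to Trp53 over 353 bases held 29 counts in the 8 libraries against 2149 of Trp53. The activity of p53 is set largely at the protein, which RNA does not measure.

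Mdm2 was at 15.3, 20.8, 25.7 and 44.3 CPM in PR-SET7_LOBE, 23.1 and 32.5 CPM in DEN_WT, and 15.3 and 10.9 CPM in WT. The DEN_WT libraries lay above both WT libraries, and PR-SET7_LOBE replicate 1 lay at the higher of them. Its difference from WT on the log2 scale was 1.02 in PR-SET7_LOBE (SE 0.46, adjusted p = 0.293, edgeR) and 1.09 in DEN_WT (SE 0.52, adjusted p = 0.192). Mdm4, which binds p53 and blocks its activity, was at 3.57, 8.42, 16.2 and 10.7 CPM in PR-SET7_LOBE, 13.2 and 10.8 CPM in DEN_WT, and 5.84 and 3.32 CPM in WT, with log2 fold changes of 1.09 (adjusted p = 0.349) and 1.39 (adjusted p = 0.185).

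Trp73, a relative of p53 that can bind the same elements, was detected at 0, 0, 1.49 and 1.55 CPM in PR-SET7_LOBE, at 0.0885 and 0.0883 CPM in DEN_WT, and at 0 in both WT libraries. The groups held 33, 2 and 0 counts in that order, and all counts of PR-SET7_LOBE came from replicates 3 and 4. With libraries pooled, PR-SET7_LOBE was at 5.47-fold the level that an assumed 3 counts would give in WT. It was at 8.71-fold the level of DEN_WT, with a 95% counting interval of 2.23 to 74.9. Neither difference passed (adjusted p = 0.295 and 0.380, edgeR). Pooling leaves out the spread between libraries, and PR-SET7_LOBE replicates 1 and 2 held 0 counts, as WT did. Trp73 passed the count filter through PR-SET7_LOBE alone, so a higher level there was a condition of its being tested. No molecular identifiers were used, so several reads may stem from 1 molecule, and the interval covers only counting error. Trp73 overlaps genes on the opposite strand, and the sources used here do not say whether reads were counted by strand.

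**Figure D3:**
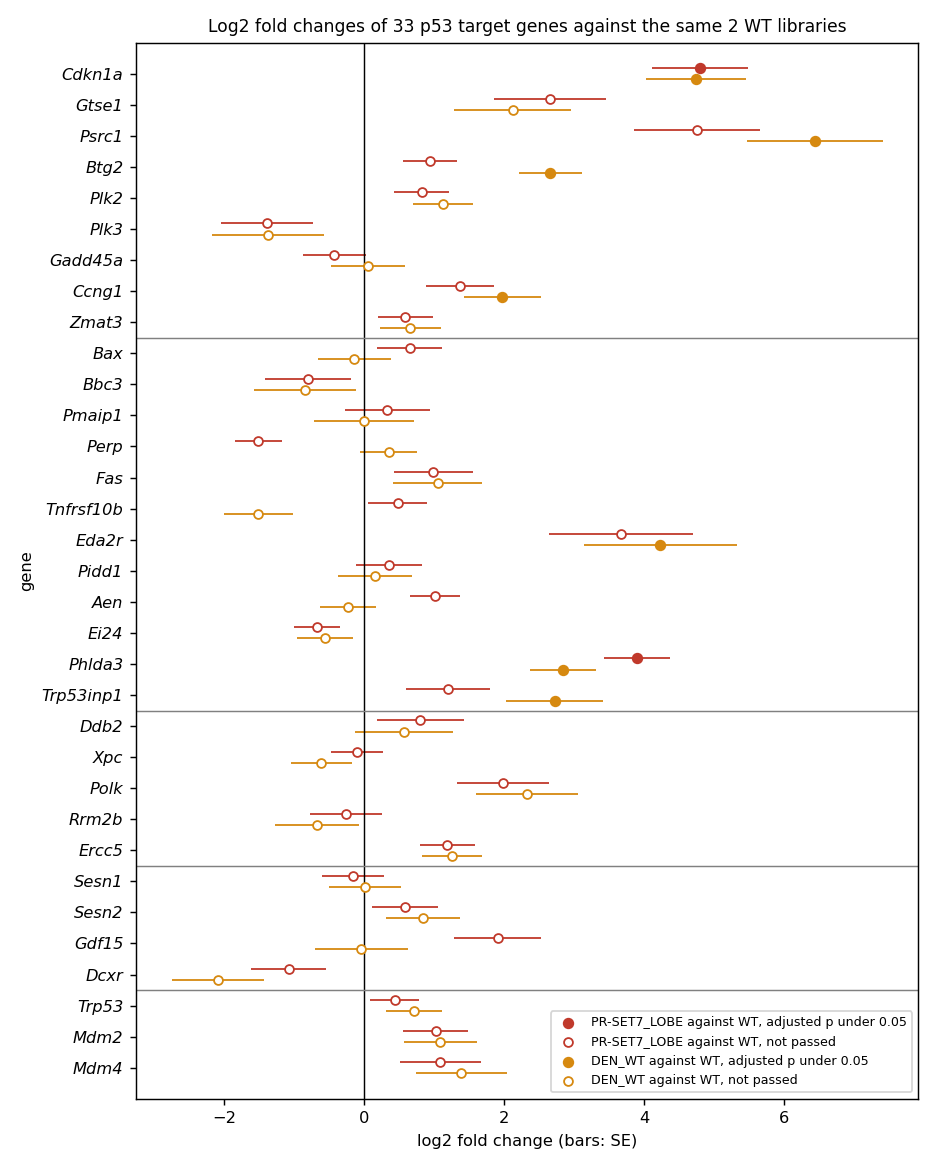
Log2 fold change with its standard error (bars) of 33 genes, Trp73 left out for its 0 counts in WT, for PR-SET7_LOBE against WT and DEN_WT against WT, which share the WT libraries; filled points passed at an adjusted p under 0.05. Cdkn1a and Phlda3 are filled in both comparisons with WT, at 4.80 and 3.90 in PR-SET7_LOBE and at 4.74 and 2.84 in DEN_WT, and the repair, stress and feedback genes have no filled point.

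In the edgeR fit over all libraries, only arrest and death genes were called, and the other lists are shorter. In PR-SET7_LOBE against WT, 1 of 9 arrest genes and 1 of 12 death genes rose, against 0.150% of all genes. In DEN_WT against WT, 4 of 9 arrest genes rose (median log2 fold change 1.97) and 3 of 12 death genes (median 0.08), against 5.18% of all genes. Alternatives called genes of the other lists. DESeq2 called Polk and Gdf15 in PR-SET7_LOBE against WT, where it called 5.34% of all genes. In DEN_WT against WT limma voom called Polk, Ercc5, Dcxr (lower), Mdm2, Mdm4 and Trp53, with 36.5% of all genes. The median of the arrest genes in PR-SET7_LOBE was 0.94 and that of the death genes 0.56. For the 4 genes of the p53 family and feedback the medians were 1.05 in PR-SET7_LOBE and 1.24 in DEN_WT. All 4 log2 fold changes were above 0 in each and none was past the threshold. Of these, Trp73 held 0 counts in both WT libraries, so it could not lie below WT, and the medians include it.

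Further genes of the pathway, 27 upstream regulators and cofactors and 44 other targets, were set beside the 34. Of the 71, 70 could be tested. In PR-SET7_LOBE against WT none passed by edgeR, with 21 at an unadjusted p under 0.05 and a median log2 fold change of 0.19, while DESeq2 called 11 and limma voom 4. Without PR-SET7_LOBE replicate 1 edgeR called 19 of them, with 13.9% of all genes, and without PR-SET7_LOBE replicate 4 it called 1. The cytokine Lif and cyclin D1 (Ccnd1) were among the 3 with the smallest adjusted p, with log2 fold changes of 2.80 (adjusted p = 0.0743) and 2.53 (adjusted p = 0.0834).

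In DEN_WT against WT, 4 of the 70 rose (5.71%) and 2 fell (2.86%), shares near or below the 5.18% and 4.54% of all genes, so the count says nothing particular of the list. Among those that rose were Ckap2, a spindle protein (log2 fold change 4.54, adjusted p = 0.0110, edgeR), Dusp5, a phosphatase that switches off ERK (3.38, adjusted p = 0.0168), and Thbs1, a matrix protein that restrains blood vessel growth (3.27, adjusted p = 0.0122). Rpl11, a ribosomal protein that can bind Mdm2, fell by 2.63 on the log2 scale (adjusted p = 0.0141), and Sulf2, a heparan sulfatase, by 2.25 (adjusted p = 0.0481). Between PR-SET7_LOBE and DEN_WT, Sfn, the 14-3-3 protein that holds cells before mitosis, was higher, at 18.6, 4.11, 22.2 and 6.92 CPM in PR-SET7_LOBE, 0.443 and 0.972 CPM in DEN_WT, and 1.15 and 1.29 CPM in WT (log2 fold change 4.17, adjusted p = 0.00940). Rpl11 was also higher (2.05, adjusted p = 0.0213). Dusp5 and Rps27l, a ribosomal protein paralogue, were lower in PR-SET7_LOBE than in DEN_WT, with log2 fold changes of -2.62 (adjusted p = 0.0111) and -1.95 (adjusted p = 0.0131). The 6 calls in DEN_WT against WT became 1 without either WT library, 3 without DEN_WT replicate 1, 0 without DEN_WT replicate 2 and 22 without PR-SET7_LOBE replicate 1, with 26.5% of all genes. The 4 calls between PR-SET7_LOBE and DEN_WT, 5.71% of the 70 where 11.1% of all genes were called, became 1 without DEN_WT replicate 1, 0 without DEN_WT replicate 2 and 13 without PR-SET7_LOBE replicate 1.

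Proliferation genes, cholangiocyte and progenitor markers and stellate cell markers summed above WT in both other groups. The markers of the other cell types did not do so in both. The summed level of 15 proliferation genes was 48.2 to 87.4 CPM in PR-SET7_LOBE, 47.3 to 56.4 CPM in DEN_WT and 16 to 16.6 CPM in WT, and 5 of the 15 rose in DEN_WT and none in PR-SET7_LOBE (edgeR), where their median log2 fold changes were 2.90 and 2.78. Ccnb1, which drives entry into mitosis, was at 0 in both WT libraries, and Ccnb2 and Bub1 in WT replicate 1. Psrc1, Gtse1 and Ckap2 are spindle genes of dividing cells as well as p53 targets. The 10 cholangiocyte and progenitor markers summed to 128 to 296 CPM in PR-SET7_LOBE, 446 to 754 CPM in DEN_WT and 39.7 to 68.0 CPM in WT, where Cftr was at 0 in replicate 1. Of the 9 that could be tested, 1 rose in PR-SET7_LOBE and 2 in DEN_WT. The largest part of the sum in both groups was Spp1, at 176, 249, 191 and 68.8 CPM in PR-SET7_LOBE and 383 and 679 CPM in DEN_WT. In WT, Spp1 was at 15.5 and 9.04 CPM. Stellate cell markers summed to 195 to 277 CPM in PR-SET7_LOBE, 229 to 394 CPM in DEN_WT and 112 to 158 CPM in WT, with none of 10 past the threshold in either comparison with WT. Lymphocyte markers summed to 22.9 to 28.5 CPM in PR-SET7_LOBE, 6.36 to 8.77 CPM in DEN_WT and 19.9 to 21.7 CPM in WT. The low DEN_WT sum came from Cd3d, named after its values were seen, which was at 13.8, 6.22, 4.08 and 6.47 CPM in PR-SET7_LOBE, 0.354 and 0.265 CPM in DEN_WT, and 14.0 and 13.6 CPM in WT. Without Cd3d, a sum chosen after seeing the data, lymphocyte markers were at 14.7 to 18.8 CPM in PR-SET7_LOBE, 6.09 to 8.41 CPM in DEN_WT and 5.93 to 8.11 CPM in WT. The median log2 fold change of the 10 against WT was 2.07 in PR-SET7_LOBE, with none past the threshold, and -0.02 in DEN_WT, where 1 fell. Among them, Cd3g was at 0 in both WT libraries and Ms4a1 in WT replicate 2. Endothelial markers summed to 915 CPM in PR-SET7_LOBE replicate 1 and 336 to 415 CPM in replicates 2 to 4, to 438 and 473 CPM in DEN_WT, and to 773 and 631 CPM in WT, so that all sums but that of PR-SET7_LOBE replicate 1 lay below WT, with none of 10 past the threshold. The median log2 fold change of the 10 against WT was -0.16 in PR-SET7_LOBE and 0.01 in DEN_WT. The largest part of the WT sums was Eng, at 360 and 268 CPM, against 524, 93.8, 86.0 and 79.3 CPM in PR-SET7_LOBE and 114 and 125 CPM in DEN_WT. Neutrophil markers summed to 9.96 to 40.9 CPM in PR-SET7_LOBE, 3.09 to 6.73 CPM in DEN_WT and 16 to 28.7 CPM in WT, with 1 of 5 tested lower in DEN_WT than in WT. Macrophage markers summed to 471 to 982 CPM in PR-SET7_LOBE, 295 to 445 CPM in DEN_WT and 369 to 1160 CPM in WT, which overlap. The part of cell division or of these cell types in the levels of the 34 genes was not tested.

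PR-SET7_LOBE replicate 1 differed from replicates 2 to 4 in a pattern that ran with the GC content of the transcript. Over the 34 genes, its log2 difference from the mean of the other 3 libraries correlated with GC content at Pearson r = 0.78 and Spearman rho = 0.80, and over 16772 genes tested at 0.62 and 0.64. These points are genes of the same libraries and not independent replicates. At the AT-rich end, Eda2r (40.9% GC) was lower in replicate 1 by a log2 difference of -2.60, Trp53inp1 (38.8%) by -1.82 and Ccng1 (40.8%) by -1.53. At the GC-rich end, Gdf15 (61.3%) was higher by 1.57 and Bbc3 (65.2%) by 1.69. Phlda3 (62.6%) and Cdkn1a (54.4%) differed by 0.74 and 0.44. Without replicate 1, 11 of the 34 genes passed in PR-SET7_LOBE against WT, 9 higher and 2 lower, in place of 2, and 2392 of all genes in place of 43. Deviations also followed GC content by group, with r = 0.297 and 0.194 in WT and -0.276 and -0.246 in DEN_WT. In PR-SET7_LOBE replicates 2 to 4, r was -0.045, -0.289 and -0.231. The GC offset lowered the differences of Ccng1, Trp53inp1 and Eda2r in DEN_WT against WT and raised that of Phlda3. The part of GC content in the differences from WT was not tested further.

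**Figure D4:**
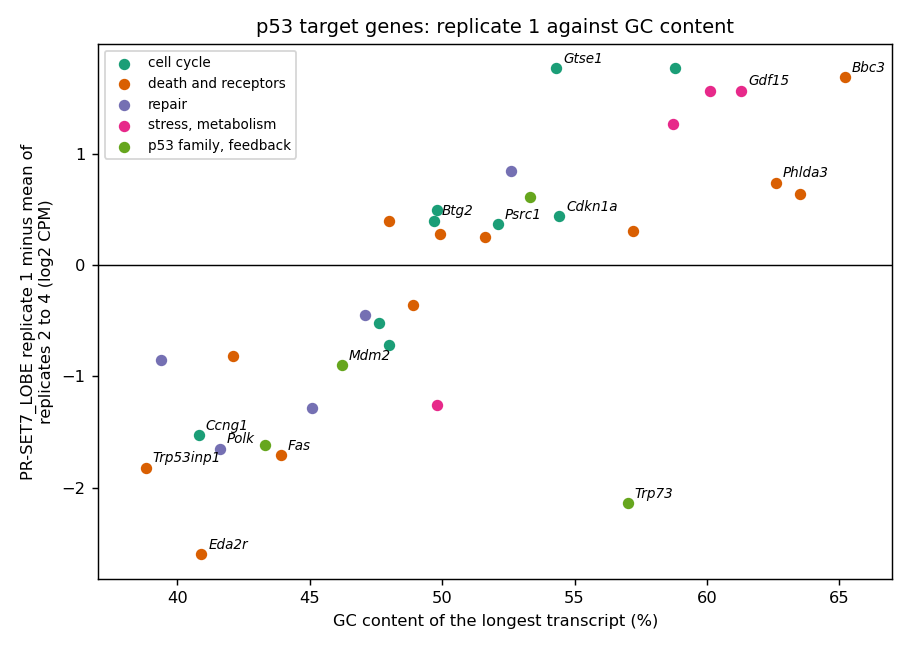
Log2 difference of PR-SET7_LOBE replicate 1 from the mean of PR-SET7_LOBE replicates 2 to 4 (vertical axis) against the GC content of the longest annotated transcript in percent (horizontal axis), with 1 point for each of the 34 genes. AT-rich genes such as Eda2r, at -2.60, lie low and GC-rich genes such as Bbc3, at 1.69, lie high, while Trp73, at -2.14 with 57.0% GC and 0 counts in replicate 1, lies apart.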

How the data were processed

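Polyadenylated RNA was isolated, cut with an RNase and sequenced on an Ion Proton instrument, per the labels' protocols. The authors deposited raw counts of reads per gene, for all 8 libraries in 1 table with mm9 coordinates. The authors' tools were TopHat2 2.0.9, Cufflinks and DESeq with the mm9 build, per the submitters' processing notes. How reads were counted, with which annotation and strand setting, was not given in the sources used here, so genes that overlap others or have near copies are uncertain, as said beside them.

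Counts were filtered with filterByExpr by group, which left 17362 of 37583 genes, scaled with TMM and fitted by group in edgeR 4.0.16 with the robust quasi-likelihood test (R 4.3.3), Benjamini-Hochberg adjustment and a threshold of 0.05. The common biological coefficient of variation was 0.479. SE is the absolute log2 fold change divided by the square root of F. The steps were checked on simulated data. Alternatives were RLE and upper-quartile scaling, DESeq2 1.42.0, limma voom 3.58.1, no filter, a filter of 5 CPM in 2 libraries, a replicate block, a GC offset, both together, fits on only the 2 groups compared, and leaving out each library. GC content came from the longest GENCODE M21 transcript, which 87.4% of the table's genes and all 34 described here had, and near copies (at least 95% identity over 200 bases) from blastn 2.17.0. Replicates differed beyond sampling noise in every group (lowest chi-square per degree of freedom 27.4).

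The members and lists were chosen with earlier results of these data known. Genes named are all 34 members, with full values for those called in any comparison, the 4 with the smallest adjusted p in each, and Trp53, Mdm2, Cdkn1a and Ccng1. Of the other pathway genes those called and the 3 with the smallest adjusted p in each comparison were named, and up to a few markers. Values of some genes outside the 34 are not reported here.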

Additional observations from a re-analysis of the deposited data

Results flagged for a closer look

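Gdf15 in PR-SET7_LOBE replicate 1 stood apart from its group. It was at 54.8 CPM there and between 15.4 and 20.5 CPM in the other 3 libraries, so that the gap to the nearest library was 0.871 of the group's range, above Dixon's critical value for 4 samples. The 34 genes gave 34 such groups, of which 1 (2.94%) was flagged, and chance flags about 1 in 20. Gdf15 is GC-rich (61.3%), and replicate 1 was higher for GC-rich members; the part of GC content in this value was not tested.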

How the results depend on the processing

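RLE scaling changed none of the 6 counts of calls, and the strict filter only that of other pathway genes in DEN_WT against WT, to 7. Of the 34 genes, the 2 calls in PR-SET7_LOBE against WT became 8 with DESeq2, 4 with limma voom, 6 with no count filter, 5 with the GC offset, 4 with the replicate block and 4 with the block and GC offset together. The share of all genes called there, 0.248% before, became 5.34%, 2.22%, 1.39%, 0.899%, 1.40% and 1.47% under these settings, in the same order. The 7 calls in DEN_WT against WT became 11, 16, 9, 11, 11 and 12 under the same settings and 18 in a fit on only the 2 groups, while the share of all genes called, 9.73% before, became 36.5% with limma voom, 37.8% on only the 2 groups and 18.1% with DESeq2 or the block. The 3 calls between PR-SET7_LOBE and DEN_WT became 7, 8, 6, 7, 6 and 4, and 5 with upper-quartile scaling. Leaving out 1 library gave 0 to 11, 2 to 14 and 0 to 5 calls in these comparisons. Of the other pathway genes, the 0 calls in PR-SET7_LOBE against WT became 11, 4, 5, 4, 2 and 3, and 2 with upper-quartile scaling; the 6 in DEN_WT against WT became 13, 27, 10, 13, 11 and 16, and 28 on only the 2 groups; the 4 between PR-SET7_LOBE and DEN_WT became 8, 21, 6, 7, 8 and 5. Leaving out 1 library gave 0 to 19, 0 to 22 and 0 to 13. The cause of these shifts was not tested. Leaving out a WT or DEN_WT library left 1 in its group, assumed to vary like the other groups.

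Same-numbered libraries deviated together with r = 0.165 and 0.106 in PR-SET7_LOBE against WT, 0.060 and 0.060 in DEN_WT against WT, and -0.009 and 0.020 between PR-SET7_LOBE and DEN_WT, so the replicate numbers were not taken as pairs. With the block, PR-SET7_LOBE replicates 3 and 4, whose numbers no other group has, each took a term of their own. Its comparisons of PR-SET7_LOBE thus rest on replicates 1 and 2 alone. Among differences that had not passed, those of Trp73 in PR-SET7_LOBE turned their sign with the block, where replicates 1 and 2 held 0 counts of it. That of Phlda3 between PR-SET7_LOBE and DEN_WT turned with the block and GC offset together. With the GC offset Bbc3 turned in DEN_WT against WT and Bax between PR-SET7_LOBE and DEN_WT, where Gtse1 turned with limma voom and without PR-SET7_LOBE replicate 1. Upper-quartile scaling moved the median log2 fold change of all genes in PR-SET7_LOBE against WT to 0.29, against 0.11, that of the 34 genes to 1.01, and the share of called genes that were higher to 71.2%, against 60.5%. No called difference of the 34 genes changed direction under any alternative run. Among the 34, the signs that turned with RLE or upper-quartile scaling belonged to log2 fold changes of at most 0.16. At 7305595 to 16108081 counts per library, Psrc1, Eda2r and Trp73 rest on a few counts or none in WT, all under 1 CPM there.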
